A study of Arabidopsis thaliana with 36 samples.

Results

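The RpoB map of leaf chloroplasts after 24 h of darkness is made of 6 of the 36 libraries of the series, chosen by their labels: 3 libraries of DNA bound to RpoB (ChIP) and 3 libraries of unselected DNA (input), all named Night. The plants were wild-type Arabidopsis thaliana of the Col-0 ecotype, 14 days old, raised on soil in a long-day light cycle and kept in complete darkness for 24 h before harvest. The leaf plants used for comparison, named Day, had the same genotype and age and were harvested 2 h into the light, again with 3 ChIP and 3 input libraries. In both groups chloroplasts were enriched from rosette leaves and crosslinked with 4% formaldehyde for 4 h, and the ChIP libraries were made with an antibody against RpoB. The labels do not say whether the 3 replicates came from separate batches of plants, so p-values measure the spread between these samples. Only the plastid genome is in the table, and leaf or other cell types could not be checked against marker genes.

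RpoB is the β subunit of the plastid-encoded RNA polymerase (PEP), a bacterial-type enzyme whose core is built from the chloroplast genes rpoA, rpoB, rpoC1 and rpoC2. Nucleus-encoded sigma factors direct PEP to promoters, and nucleus-encoded accessory proteins are bound to it in green leaves. A separate nucleus-encoded polymerase (NEP) of phage type transcribes housekeeping genes, among them the rpo genes themselves. Many chloroplast genes are transcribed as units of several genes, and the rRNA operon and part of the tRNA genes lie in an inverted repeat that the genome carries in a pair of copies.

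The values were read coverage at each of 154477 positions. Mean coverage was 102, 480 and 236 reads per position in Night ChIP replicates 1, 2 and 3, and 1017 to 1395 in the Night inputs. The Day ChIP libraries were at 425 to 1039, a range that took in only Night replicate 2. Coverage was scaled to a plastid mean of 1, called relative coverage here, and enrichment is the log2 of the ChIP value over the mean of the 3 inputs of the same group. An enrichment of 0 therefore means the same share of the library in ChIP and input, and the values are shares, since more coverage at one place lowers the others. Over the 113 genes the 3 Night ChIP libraries had pairwise Pearson correlations of 0.974 to 0.976, as a description across genes. Their contrast was not equal: the SD of enrichment across genes was 1.06, 1.17 and 0.92 in replicates 1, 2 and 3.

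After 24 h of darkness RpoB remained unevenly spread over the plastid genome, with the highest enrichment at tRNA genes and the lowest at protein-coding genes. With limma and Benjamini-Hochberg adjustment over all 113 genes (threshold 0.05), 100 genes (88.5%) differed between Night ChIP and input. Of these, 40 (35.4%) were higher and 60 (53.1%) were lower, and the median of all genes was −0.35. When libraries were instead centred on their median gene, 51 genes were higher and 47 lower. The 10 highest genes were all tRNA genes and had enrichments of 1.61 to 3.24, and the 10 lowest were at −1.39 to −1.14. Each of these 20 genes lay on the same side of 0 in 3 of 3 ChIP libraries.

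**Figure D1:**
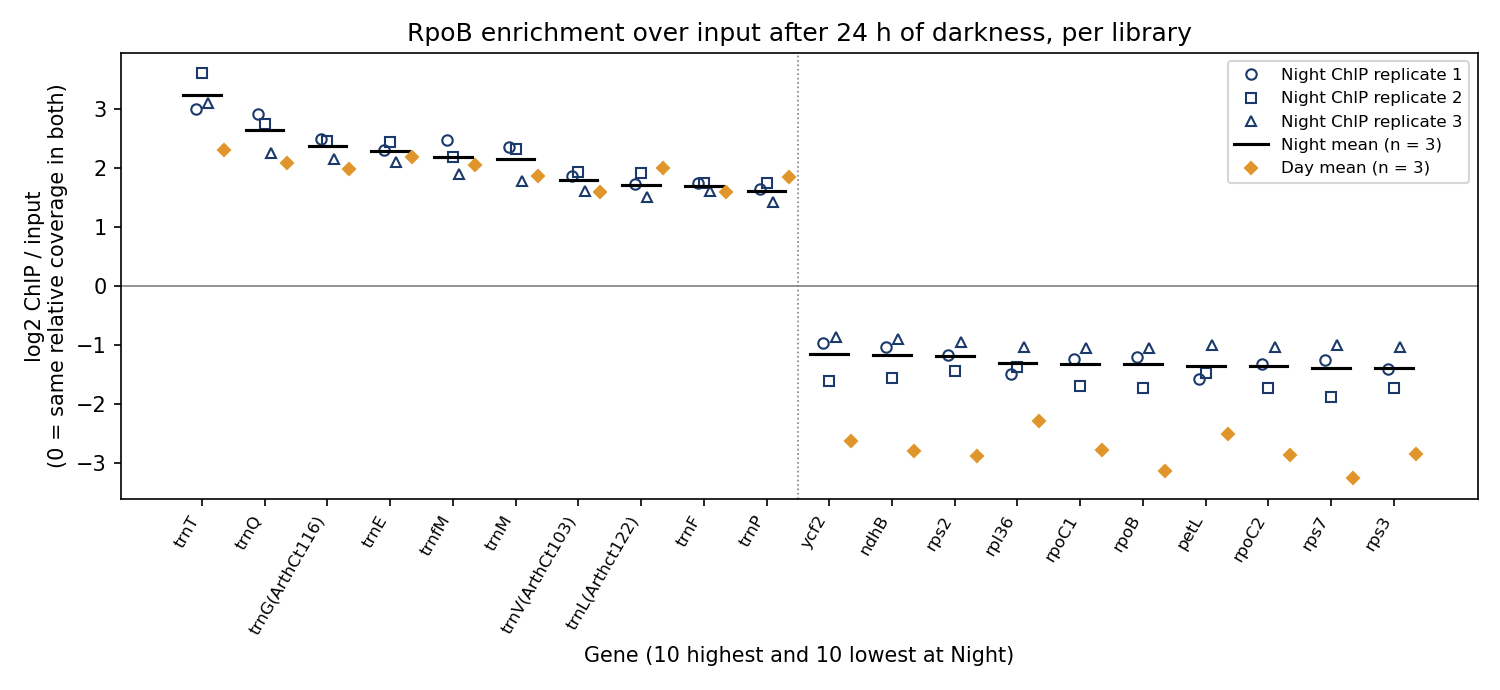
Enrichment (log2 ChIP over input, vertical axis) of the 10 highest and 10 lowest genes at Night; open symbols are the 3 Night ChIP libraries, bars their mean and diamonds the Day mean (n = 3). trnT is highest at 3.24 and rps3 lowest at −1.39, and the Day means of the 10 lowest genes all lie below their Night libraries.

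The tRNA genes had the highest median of the gene groups. Of 30 measured tRNA genes, 26 were higher than input at Night, none was lower and 4 passed in neither direction, and the median was 1.06. The highest was trnT (ArthCt098), the gene of a threonine tRNA. Its relative coverage was 4.03, 6.14 and 4.33 in the 3 ChIP libraries and 0.42, 0.53 and 0.56 in the inputs. All ChIP libraries lay far above all inputs, and the enrichment was 3.24 ± 0.32 (log2, SD, n = 3), a 9.47-fold difference (limma, adjusted p = 1e-19). The input of trnT was itself below the plastid average, which raises a ratio for the same ChIP coverage.

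trnQ (ArthCt090), for glutamine, had the highest ChIP coverage of the tRNA genes. Its relative coverage was 8.23, 7.27 and 5.21 in ChIP against 1.05 to 1.12 in the inputs, an enrichment of 2.65 ± 0.34. Here the input was close to the plastid average in each library. trnG (ArthCt116), for glycine, followed at 2.37 ± 0.19 and trnE (ArthCt097), whose glutamyl-tRNA also feeds chlorophyll and heme synthesis, at 2.29 ± 0.16. The relative coverage of trnE was 4.88, 5.36 and 4.28 in ChIP and 0.95 to 1.01 in the inputs. trnfM, the initiator tRNA, was at 2.19 ± 0.28 and trnM, for elongator methionine, at 2.16 ± 0.33. The other 4 of the 10 highest were trnV (ArthCt103) for valine at 1.81 ± 0.17, trnL (Arthct122) for leucine at 1.72 ± 0.21, trnF for phenylalanine at 1.71 ± 0.08 and trnP for proline at 1.61 ± 0.16. Short genes share reads with their neighbours: trnG (ArthCt116) and trnfM lay in 1 enriched stretch of 650 bp, and trnV (ArthCt103) and trnM in 1 of 1200 bp.

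The 4 tRNA genes that did not pass were trnW at 0.17 ± 0.05, trnR (ArthCt127) at 0.10 ± 0.22, trnS (ArthCt125) at −0.12 ± 0.15 and trnK at −0.22 ± 0.13. trnK is split by a long intron that holds matK, so its value is mostly that of matK coverage. Relative coverage of trnR (ArthCt127), at the end of the rRNA operon, was 1.12, 1.10 and 1.45 in ChIP and 1.10 to 1.18 in the inputs. Only ChIP replicate 3 was above the inputs there. trnH, at the end of the numbered sequence, was at 1.43 ± 0.54, but its input coverage was 0.08 to 0.14 of the plastid mean, the lowest of any gene named here.

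The 4 rRNA genes all passed as higher at Night, with a median of 0.79. rrn16S, which encodes the RNA of the small ribosomal subunit, had a relative coverage of 1.92, 1.71 and 2.23 in ChIP and 1.16 to 1.26 in the inputs. The ChIP libraries were all above the inputs, by less than at the 10 highest tRNA genes, and the enrichment was 0.69 ± 0.19 (adjusted p = 2.49e-06, limma). rrn23S was at 0.84 ± 0.20, rrn4.5S at 0.73 ± 0.20 and the 121 bp rRNA gene ArthCr091 at 1.08 ± 0.15. Inside the operon, trnI (ArthCt107) was at 0.56 ± 0.21 and trnA at 0.80 ± 0.14. The operon from rrn16S to ArthCr091 took 17.8%, 15.5% and 19.9% of coverage in the 3 Night ChIP libraries. It took 10.1% to 10.7% in the Night inputs and 33.6% to 45.3% in the Day ChIP libraries.

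Among the 79 protein-coding genes, 10 were higher than input at Night, 60 were lower and 9 did not pass, with a median of −0.74. Without replicate 2 the counts were 5 higher and 59 lower, and with centred libraries 19 and 47. psbA, which encodes the D1 protein of photosystem II, was the highest. Its relative coverage was 2.53, 2.52 and 2.44 in ChIP and 1.01 to 1.04 in the inputs. The 3 ChIP libraries were nearly equal, and the enrichment was 1.27 ± 0.03 (adjusted p = 6.04e-13, limma). rbcL, for the large subunit of Rubisco, was at 1.72, 1.73 and 1.67 in ChIP and 1.10 to 1.11 in the inputs, an enrichment of 0.63 ± 0.03 with no overlap between ChIP and input libraries. The other 8 were ndhH at 0.66, rpl33 at 0.61, rpl32 at 0.58, psbI at 0.39, psbN at 0.37, psaJ at 0.27, rpl20 at 0.26 and ndhC at 0.25. The call of psaJ, a small photosystem I subunit, was lost without replicate 1 (0.32) and without replicate 2 (0.14).

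Photosystem II genes were mixed: of 15, psbA, psbI and psbN were higher, 7 were lower and 5 did not pass, with a median of −0.15 (8 higher and 4 lower with centred libraries). Without replicate 2 only 1 of the 15 was higher. psbD, for the D2 protein, had relative coverage of 1.22, 1.10 and 1.20 in ChIP and 1.06 to 1.07 in the inputs. Its enrichment of 0.14 ± 0.08 did not pass (adjusted p = 0.235). psbF, for a cytochrome b559 subunit, was the lowest of the group at −0.80 ± 0.15. Of 5 photosystem I genes, psaJ was higher and 4 were lower: psaA, for a reaction centre protein, was at −0.71 ± 0.17 and psaC, for an iron-sulfur subunit, at −1.04 ± 0.16.

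All 6 ATP synthase genes were lower than input, from atpE at −0.63 ± 0.23 to atpB at −1.06 ± 0.23, which overlap each other. Of 6 cytochrome b6f genes, 5 were lower and petN did not pass, at 0.03 ± 0.11. petL, a small subunit of this complex, was among the 10 lowest genes at −1.35 ± 0.31. Genes of the NDH complex, which takes part in cyclic electron flow, had a median of −0.41: ndhH and ndhC were higher, 8 were lower and ndhJ did not pass, whereas 3 were higher and 3 lower with centred libraries. ndhB was the lowest of them at −1.16 ± 0.35.

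**Figure D2:**
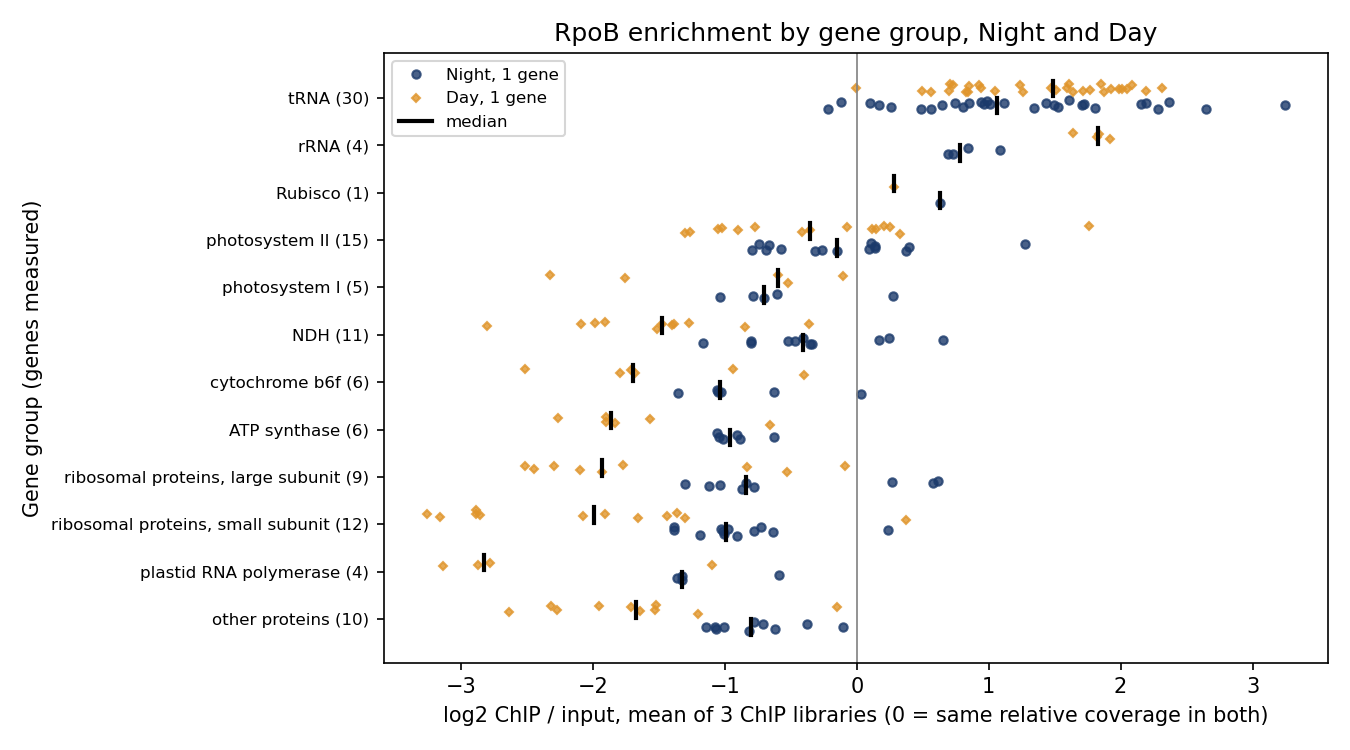
Enrichment of every gene (horizontal axis, log2 ChIP over input, mean of 3 ChIP libraries) by functional group, with circles for Night, diamonds for Day and bars for group medians. The Night medians run from 1.06 for tRNA genes to −1.32 for the RNA polymerase genes, and the Day medians from 1.83 for rRNA genes to −2.82 for the RNA polymerase genes.

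Most genes of the gene expression machinery, apart from tRNA and rRNA genes, were below input. All 4 genes of PEP itself were lower than input, with a median of −1.32. rpoB, the gene of the precipitated subunit, had relative coverage of 0.44, 0.31 and 0.49 in ChIP and 1.00 to 1.03 in the inputs. No ChIP library came near an input, and the enrichment was −1.33 ± 0.35 (adjusted p = 4.35e-09, limma). rpoC1 was at −1.32 ± 0.33, rpoC2 at −1.36 ± 0.35 and rpoA at −0.59 ± 0.06. Of 12 small-subunit ribosomal protein genes 11 were lower, with rps3 at −1.39 ± 0.35, rps7 at −1.38 ± 0.46 and rps2 at −1.19 ± 0.25, and rps14 did not pass at 0.23 ± 0.12. rps3 overlaps rpl22 and shares coverage with it. Of 9 large-subunit genes, rpl33, rpl32 and rpl20 were higher and 6 were lower, down to rpl36 at −1.30 ± 0.23.

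Textbook targets of NEP (accD, clpP, rpoB, rpoC1, rpoC2, ycf1 and ycf2) make up 8 entries of the table, because ycf1 has a shortened copy. Of these, 7 were lower at Night and clpP, for a protease subunit, did not pass at −0.11 ± 0.17, and the median was −1.11. The other members measured were accD at −1.07, ycf2 at −1.14, the ycf1 entries at −1.08 and −0.62, and rpoB, rpoC1 and rpoC2 given above. In each of these 7 entries all Night ChIP libraries were below 0.

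In 50 bp windows the map resolved into narrow stretches. Of 2564 windows, counting the repeat in 1 copy, 2244 (87.5%) differed from input, 579 (22.6%) higher and 1665 (64.9%) lower. Windows that passed and were enriched by over 2-fold numbered 269, or 10.5% of all. By position, 69 of 190 windows in tRNA genes, 152 of 680 between genes, 16 of 96 in rRNA genes and 32 of 1598 in protein-coding genes were in this class. Of the 269 windows, 62.1% lay within 250 bp of a tRNA gene, compared with 16.8% of all windows.

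Runs of at least 3 such windows, joined over a gap of 1 window, gave 31 enriched regions with a total of 12.6 kb and a median width of 300 bp. The highest window lay between genes in 18 regions, in a tRNA gene in 8, in a protein-coding gene in 3 and in an rRNA gene in 2. ChIP replicate 2 gave the highest of the 3 values in 23 of the 31 peak windows and replicate 3 the lowest in 23. In 5 of the peak windows mean input coverage was under 0.5 of the plastid mean. Region positions below are those of the deposited table, which follows TAIR10.

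The highest region ran from position 47351 to 48650, across part of trnL (ArthCt101) and trnF, with its peak between these genes. Relative coverage in the peak window was 11.3, 17.9 and 9.29 in ChIP and 0.66 to 0.75 in the inputs, an enrichment of 4.13 ± 0.49 (adjusted p = 5.41e-09, limma over windows). A separate region at 46551 to 46950, on the other side of trnL (ArthCt101), peaked at 2.94 ± 0.54. The region at trnT, 31101 to 31850, peaked at 3.34 ± 0.73 on the trnE side of the gene. Its window had relative coverage of 2.16, 5.07 and 2.05 in ChIP and only 0.24 to 0.30 in the inputs, and ChIP replicate 2 stood above the other two.

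The third region by height, at 54601 to 55050, peaked between the divergent genes atpB and rbcL and reached into rbcL. Its peak window was 157 bp from rbcL and 594 bp from atpB. Relative coverage was 6.32, 8.61 and 5.19 in ChIP and 0.65 to 0.73 in the inputs, giving 3.24 ± 0.37. Thus atpB was below input over its length, at −1.06, while a stretch between it and rbcL, nearer to rbcL, was among the most enriched of the genome. A region at 27001 to 27400 peaked at 3.11 ± 0.31 between rpoB and trnC, on the trnC side, and reached into trnC. At 64301 to 64600, beside psbE, the peak was 2.79 ± 0.24, whereas psbE, for the other cytochrome b559 subunit, did not pass over its length at 0.11 ± 0.21.

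The other regions among the 10 highest were at tRNA genes, apart from 1 with its peak in ndhH. The region beside trnQ, 6501 to 6900, peaked at 2.92 ± 0.35 with inputs of 0.96 to 1.05. The region of trnG (ArthCt116), trnfM and part of rps14, 36301 to 36950, peaked at 2.80 ± 0.27 with inputs of 0.36 to 0.44, and that of trnV (ArthCt103) and trnM, 51001 to 52200, at 2.72 ± 0.31. At 250 bp before the peak at trnG (ArthCt116) the 3 ChIP libraries gave −2.10, 2.55 and 0.10, so the replicates did not agree in sign in that stretch. psbA had a region at 751 to 1650 with its peak, 2.52 ± 0.21, in the stretch before the gene on the trnK side.

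**Figure D3:**
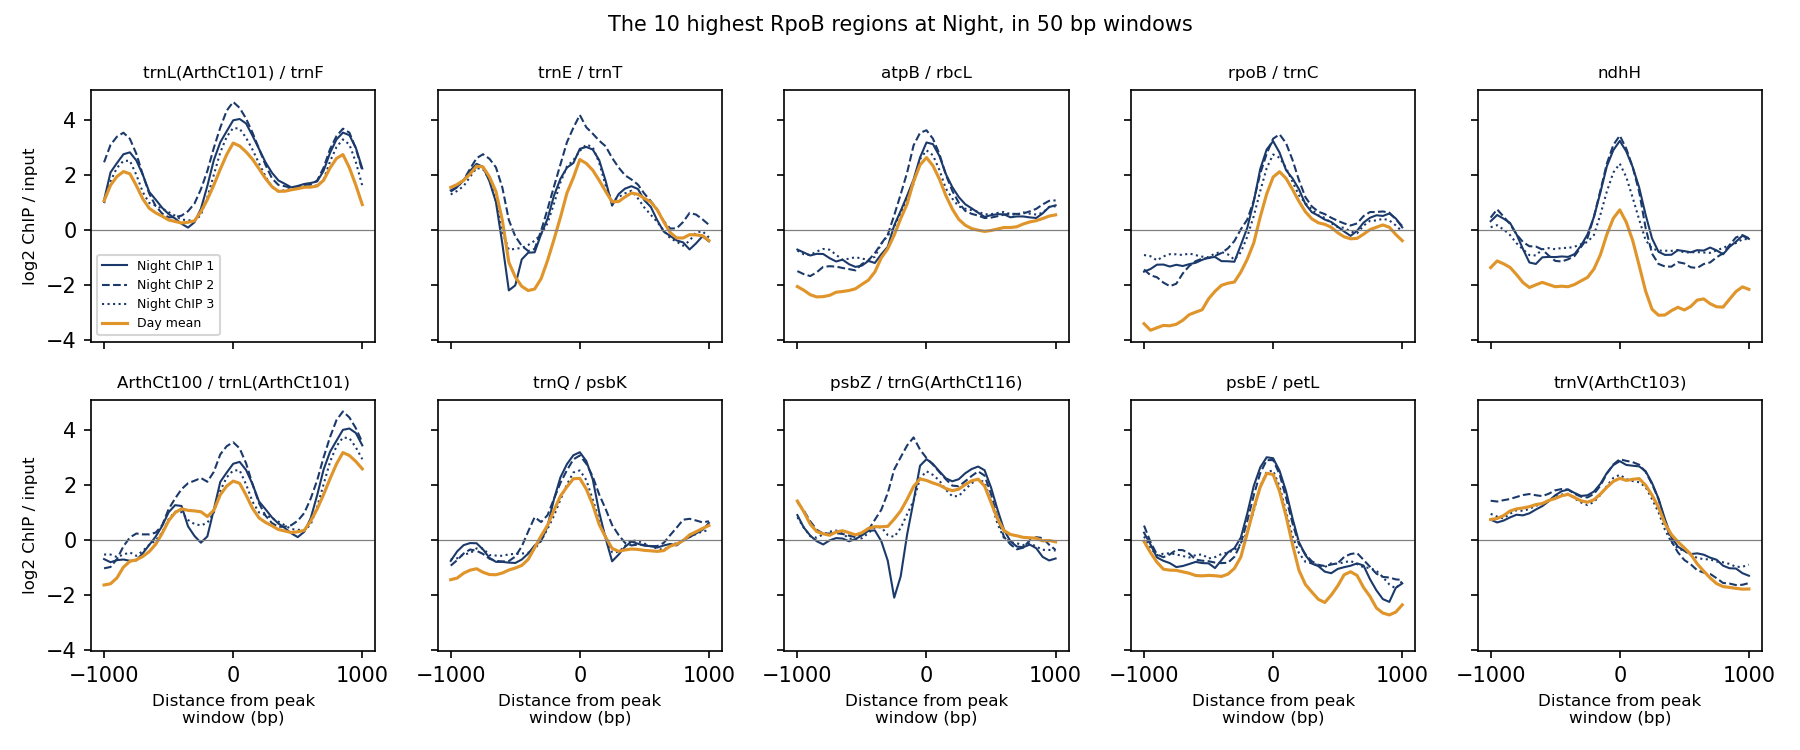
Enrichment (vertical axis, log2 ChIP over input) in 50 bp windows by distance from the peak window (horizontal axis, bp) for the 10 highest Night regions, with a blue line for each Night ChIP library and an orange line for the Day mean (n = 3); titles name the gene or flanking genes. In ndhH the 3 Night libraries reach 2.42 to 3.44 and the Day mean 0.74, while the other peaks are present in both.

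The region at ndhH, 121901 to 122250, spanned the junction with ndhA, the next gene of the unit, and its peak was in the end of ndhH that faces ndhA. Relative coverage in its peak window was 9.52, 10.9 and 5.37 in ChIP and 0.95 to 1.06 in the inputs. All 3 ChIP libraries were high, replicate 3 the least, and the enrichment was 3.04 ± 0.54 (adjusted p = 1.34e-09, limma over windows). The stretch was narrow: 250 bp to either side the ChIP libraries were between −0.85 and −0.15. From 250 to 1000 bp on the side away from ndhA, which lies in ndhH, all 3 ChIP libraries were below 0. The value of ndhH over its length, 0.66, was thus carried by its end that faces ndhA. In Day leaves the same window was at 0.74 ± 0.11. The difference, 2.29 with an SE of 0.26, passed in the test of Night change against Day change (adjusted p = 1.89e-05, limma) and also with libraries centred on the median window (1.42, adjusted p = 0.00297).

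Most Night regions were shared with Day. Of the 31 Night regions, 24 (77.4%) overlapped 1 of the 22 Day regions by at least 50 bp, and 19 Day regions (86.4%) overlapped a Night region. Of the windows enriched by over 2-fold, 208 were common to both maps, which was 77.3% of the 269 at Night and 55.5% of the 375 by Day, where 14.6% of windows were in this class. The peak windows of 14 Night regions were higher at Night than by Day and 5 were lower; over all windows 71% changed, 61.9% higher and 9.13% lower. Scaling decided much of this count: it was 6 higher and 9 lower with coverage scaled outside the inverted repeats, and 1 higher, in ndhH, and 13 lower with centred libraries.

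Apart from that in ndhH, 6 Night regions overlapped no Day region. They lay between atpH and atpI (peak 1.96 ± 0.52), between rpl33 and rps18 (1.52 ± 0.64), in clpP (1.46 ± 0.27), between ndhC and trnV (ArthCt103) (1.45 ± 0.41), in rpl32 (1.45 ± 0.52) and between petN and psbM (1.37 ± 0.39). Night ChIP replicate 2 was the highest of the 3 libraries in each. All 6 peaks were higher at Night than by Day in the main scaling, the nearest to the threshold being that between rpl33 and rps18 (1.10, adjusted p = 0.0235, limma). With coverage scaled outside the repeats 4 of the 6 stayed higher, those between atpH and atpI, in clpP, in rpl32 and between petN and psbM, and with centred libraries none did. The peak between rpl33 and rps18 had inputs of 0.41 to 0.49.

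Day regions without a Night counterpart were 3 short stretches beside trnN, at trnS (ArthCt117) and between clpP and psbB. Their Night values were 0.93 ± 0.10, 1.09 ± 0.20 and 1.32 ± 0.35, against 1.21, 1.52 and 1.77 by Day. All 3 windows were above input at Night as well, and only that beside trnN was under the 2-fold limit. In the main scaling the rRNA operon differed in extent: by Day 1 region of 8000 bp covered it from trnV (Arthct121) to trnR (ArthCt127). At Night 4 short regions of 150 to 350 bp remained in it. They lay before rrn16S (peak 1.68 ± 0.09), in rrn16S (1.09 ± 0.16), in trnA before rrn23S (1.79 ± 0.08) and in rrn23S (1.51 ± 0.15). This extent depends on the 2-fold limit and on scaling. With centred libraries the Night median of the 4 rRNA genes was 1.18, which is over 2-fold, and with scaling outside the repeats it was 0.73. All 96 windows in rRNA genes were above input at Night, with a median of 0.77, and all 96 were lower than by Day, where the median was 1.82. psbA behaved alike in extent, with a Day region from 1 to 1650 and Night regions at 1 to 150 and 751 to 1650.

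Gene by gene, enrichment at Night and by Day had the same sign of call in most cases. In the Day map 92.9% of genes passed the threshold, 33.6% above and 59.3% below input. Of its windows 89.7% passed, 20% above and 69.7% below. Both maps called 33 genes higher and 58 lower. ndhH, ndhC, rpl32 and rpl20 were higher than input at Night and lower by Day, and no gene was the reverse. The test of the difference passed for 80 genes (70.8%), 66 higher (58.4%) and 14 lower (12.4%) at Night. These counts depend on scaling: 35 higher and 36 lower with centred libraries, and 41 and 30 with coverage scaled outside the inverted repeats. The Night range over all genes was narrower, with slopes on the mean Day enrichment of 0.60, 0.66 and 0.54 in the 3 Night libraries and an SD across genes of 0.92 to 1.17 compared with 1.53 to 1.65 in the Day libraries. The highest tRNA genes did not all follow this, and trnT was at 3.24 at Night and 2.31 by Day. Of the 10 highest genes only trnL (Arthct122), at 1.72 and 2.01, and trnP, at 1.61 and 1.85, had lower means at Night. Neither of these differences passed. The median of all tRNA genes was 1.06 at Night and 1.49 by Day. Night ChIP replicates 1 and 3 had less coverage than each Day ChIP library. Night replicate 2, at 480, had more than Day replicate 1, at 425, and an SD across genes of 1.17 against 1.58. These are single libraries, and a link between coverage and the range was not tested.

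**Figure D4:**
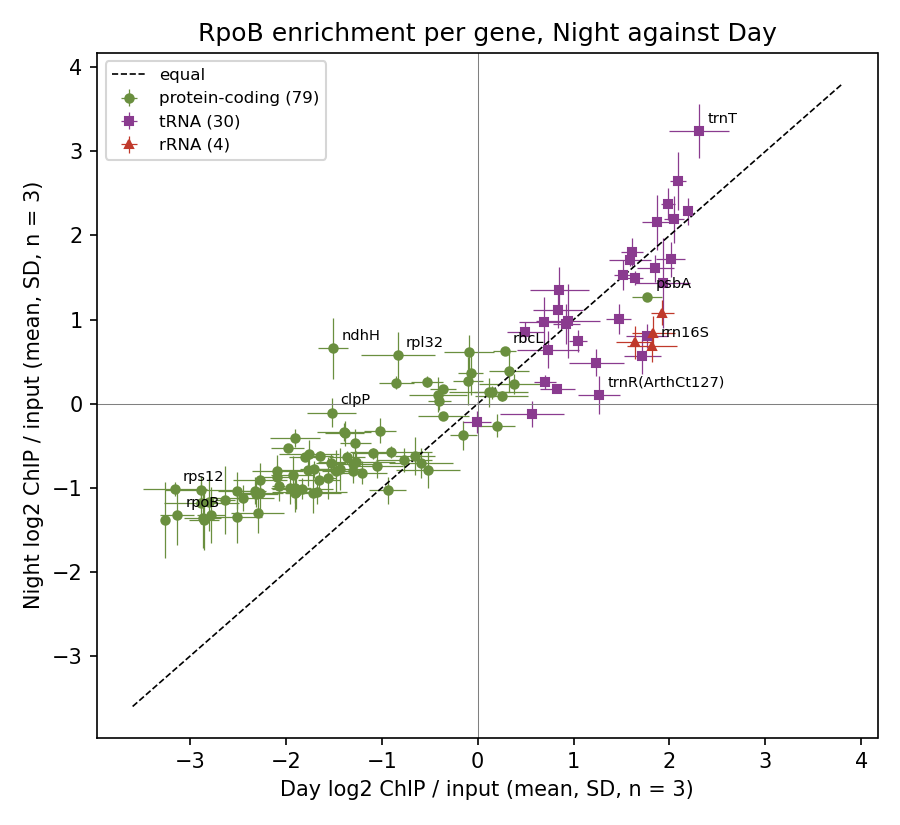
Enrichment of 113 genes at Night (vertical axis) against Day (horizontal axis), log2 ChIP over input, as means with SD (n = 3), by gene type; the dashed line marks equal values. Most low genes lie above the line, the 4 rRNA genes lie below it, and ndhH is at 0.66 at Night and −1.51 by Day.

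Among the 14 genes that fell at Night were the genes of the rRNA operon. All 4 rRNA genes were less enriched at Night than by Day, under the main scaling and under both others, whereas 12.4% of all genes were lower in the main scaling. rrn16S fell by 1.13 (SE 0.17) and rrn23S by 0.99 (SE 0.16). trnR (ArthCt127) fell by 1.16, trnI (ArthCt107) by 1.15 and trnA by 0.96, the other members of the 5 largest falls. psbA fell by 0.49 (SE 0.15, adjusted p = 0.00336, limma) and psbC, for a chlorophyll-binding antenna protein, by 0.46. When libraries were centred and divided by their SD across genes, the fall of psbA was not called (−0.20, adjusted p = 0.127, limma), whereas the other 13 stayed called. The tRNA genes outside the operon were divided: trnT (0.93), trnQ (0.56), trnL (ArthCt101) (0.49), trnG (ArthCt116) (0.38) and trnC (0.35) rose, and of these trnT alone stayed called with coverage scaled outside the repeats. trnV (Arthct121) fell by 0.75, trnS (ArthCt125) by 0.68, trnW by 0.66, trnS (ArthCt117) by 0.46 and trnD by 0.45, and these were lower under all scalings run. With centred libraries no tRNA gene was higher and 18 of 30 were lower. After centring and division by the SD across genes, 9 of the 30 were higher and 9 lower. In these units trnT (1.33), trnQ (0.89), trnG (ArthCt116) (0.70) and trnL (ArthCt101) (0.42) were called higher, and trnC (0.19) was not called.

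The 5 largest rises were in ndhH (2.17, SE 0.18), rps12 (2.14, SE 0.21), rps7 (1.88, SE 0.22), rps15 (1.86, SE 0.22) and rpoB (1.81, SE 0.22), all called under the 3 scalings and also after division by the SD. Except for ndhH these genes were far below input in both groups, so the rise was from a lower Day value, as for rpoB from −3.14 ± 0.17 by Day to −1.33 ± 0.35 at Night. All 11 NDH genes were higher at Night than by Day, with a median difference of 1.10, compared with 58.4% of all genes and a median of 0.53. With centred libraries 8 of the 11 stayed higher, compared with 35 of 113 genes, and with scaling outside the repeats 9 did. All 8 entries of the NEP list were higher under each of the 3 scalings, with a median difference of 1.44 in the main one. After division by the SD only 2 of the 8, clpP (0.54) and rpoB (0.42), stayed called. Of the photosystem II genes 5 were higher and 2 lower, but with centred libraries none was higher and 8 were lower. The difference for rbcL was 0.35 (adjusted p = 0.0325, limma) and was not called when any replicate number was left out, and its sign turned with centred libraries and with scaling outside the repeats.

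Within a transcription unit, the first gene can be compared with the last in the same library, which does not depend on scaling. In 15 units, known from earlier work, the Night ChIP libraries lay apart from the Night inputs in 10 (66.7%), and an exact permutation test of 3 against 3 libraries cannot give a p below 0.1. After adjustment over the units these 10 had an exact permutation p of 0.15. In 4 units the first gene was the more enriched. The difference over input was 1.13 from ndhH to ndhD (ChIP libraries 1.62, 1.31 and 0.74, inputs 0.08 to 0.11), 0.68 from psbE to psbJ, 0.31 from psbB to petD and 1.52 from rpl33 to rps18. In the ndhH unit the enriched region was that at the junction of ndhH and ndhA, and all genes after ndhH were at −0.41 to −1.04. By Day this unit gave −0.24.

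In 6 units the last gene was the more enriched. The difference was −0.94 from psaA to rps14, where ChIP libraries were at −0.93, −1.06 and −0.71 and inputs at −0.04 to 0.12. rps14 lies beside trnfM, and part of it was in that enriched region. The other 5 were psbK to psbI at −0.55, atpB to atpE at −0.43, petL to petG at −0.32, rps2 to atpA at −0.30 and rpl23 to rpoA at −0.19. In several of these units the Day difference had the same sign and a larger size: −1.32 for rps2 to atpA, −1.25 for atpB to atpE, −1.57 for petL to petG and −0.67 for rpl23 to rpoA. The slopes of psaA to rps14, at −0.97 by Day, and of rpl33 to rps18, at 1.57, were close to those at Night, but the difference between Day and Night was not tested for any unit. Along the rRNA operon, rrn16S minus rrn4.5S was −0.04 over input at Night, with overlapping libraries, and 0.18 by Day.

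**Figure D5:**
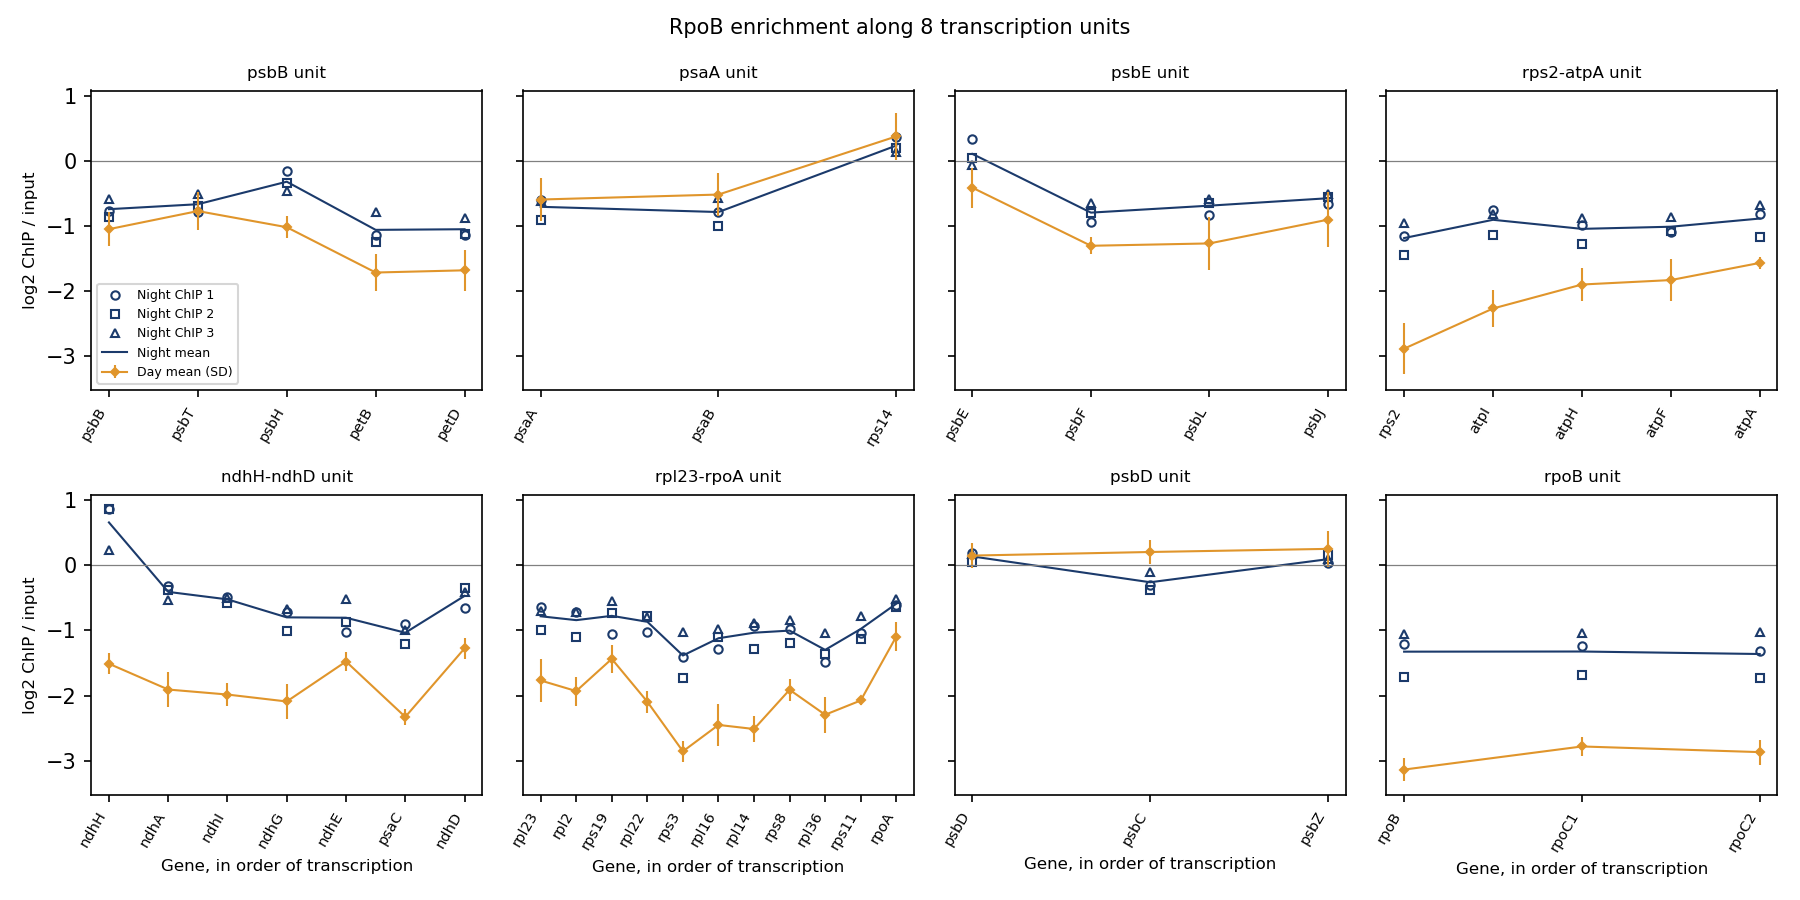
Enrichment (vertical axis, log2 ChIP over input) of the genes of 8 transcription units in order of transcription (horizontal axis), with blue symbols for the 3 Night ChIP libraries, a blue line for their mean and orange diamonds for the Day mean with SD (n = 3). The Night line falls from 0.66 at ndhH to −0.47 at ndhD, and the rpoB unit is flat at −1.33 to −1.36.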

How the data were processed

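Leaf libraries were RpoB ChIP and input, Night and Day, 3 each. The authors deposited read coverage per plastid position as whole numbers, an unscaled signal whose positions follow TAIR10, per the file headers. Per the submitters' processing notes, Trim Galore 0.4.1, Bowtie2 2.2.8.9 and bedtools 2.25.0 were used; the handling of duplicates and of reads matching both repeat copies is not given in the sources used here. Neighbouring positions share reads, so no count model or counting interval was used, and replicates give the only error.

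Gene spans came from the RefSeq table of TAIR10.1, and its repeat genes mirrored at the same position sum (238649) as the coverage. Its 129 entries gave 113 genes once a duplicate of 1 span was dropped and 15 repeat pairs were averaged; strand was not used, and 10 genes overlap another. rps12 is a 114 bp span.

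Mean coverage per gene or 50 bp window was scaled to a plastid mean of 1000, 1 was added and log2 taken, which understates changes of low values. limma 3.58.1 in R 4.3.3 (group means, eBayes with trend, two-sided) fitted the 12 leaf libraries together. Tables and plots were made with Python 3.11.15, pandas 2.3.3, numpy 2.4.6, scipy 1.17.1 and matplotlib 3.10.9. The fit was tested on simulated data. Genes named are the 10 highest and 10 lowest, the extremes of each group, the 5 largest rises and falls, and psbA, psbD, rbcL, psaA, ndhH, rrn16S, trnE and rpoB; regions named are the 10 highest. Other genes and regions, named to complete counts or beside these, were chosen after their values were seen. The members, lists and tests were chosen with earlier results of these data known. Alternatives were other scalings, pseudocounts of 0.1 and 10, a length minimum of 300 bp, 100 bp windows, a replicate block, Night libraries alone and leaving out each replicate number from both Night groups. No DNA sequence was used here.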

Additional observations from a re-analysis of the deposited data

Results flagged for a closer look

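The genes below are those of the naming rule that had a Night enrichment that differed from the Day enrichment in the limma test of the difference (Night change minus Day change, log2) with the same direction and call in the main scaling, with centred libraries and with coverage scaled outside the inverted repeats. Over all genes 35 were higher and 14 lower in this way. Of these, 18 and 13 also passed after centring and division by the SD across genes.

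Among genes higher at Night than by Day, the differences were 2.17 for ndhH, 2.14 for rps12, 1.88 for rps7, 1.86 for rps15, 1.81 for rpoB, 1.70 for rps2, 1.64 for ndhB, 1.51 for rpoC2, 1.49 for ycf2, 1.47 for rps3, 1.46 for rpoC1, 1.42 for clpP, 1.29 for psaC, 1.16 for petL and 0.995 for rpl36. Of these 15 genes only ndhH was above input at Night over its length, through the narrow peak at its end that faces ndhA. clpP did not differ from input at the threshold. rpoC2, ycf2, rps3, rpoC1, psaC, petL and rpl36 did not pass after division by the SD. Outside the naming rule, rpl32 (1.41) and ndhC (1.10) were also higher and were above input at Night. The ndhH peak window at 122051 differed by 2.29.

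Among genes lower at Night, the differences were −1.16 for trnR (ArthCt127), −1.15 for trnI (ArthCt107), −1.13 for rrn16S, −0.99 for rrn23S, −0.96 for trnA, −0.84 for ArthCr091 and −0.49 for psbA. Apart from psbA these lie in or at the end of the rRNA operon of the inverted repeat, where the values are means of both copies. psbA did not pass after division by the SD (−0.20). Outside the naming rule, rrn4.5S (−0.91), trnV (Arthct121) (−0.75), trnS (ArthCt125) (−0.68), trnW (−0.66), psbC (−0.46), trnS (ArthCt117) (−0.46) and trnD (−0.45) were also lower. The rRNA operon took 17.8% ± 2.23 of coverage in Night ChIP libraries and 38.8% ± 5.98 in Day ChIP libraries (SD, n = 3).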

How the results depend on the processing

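Coverage gives shares within a library, so scaling matters most. Centring moved the Night median of all genes from −0.35 to 0.04 and gave 4 photosystem II and 3 NDH genes lower at Night. With centring there were 41 Night regions, of which 38 overlapped a Day region. It split the genes that changed between Night and Day into 35 higher and 36 lower. Scaling outside the inverted repeats gave 41 and 30, and dividing by the SD across genes 29 and 30. With centring, signs turned for clpP (0.29) and trnK (0.18) at Night, for the differences from Day of rbcL (−0.20) and trnE (−0.46), and for those of the peak windows 31301 (−0.10), 54751 (−0.27), 46701 (−0.065), 6701 (−0.18), 36401 (−0.24), 64451 (−0.46), 51851 (−0.39) and 50701 (−0.21). With scaling outside the repeats they turned for petN (−0.023) and for the differences of rbcL (−0.097), trnE (−0.35) and window 64451 (−0.025). Genes of at least 300 bp alone, a smaller set by construction, gave 59 genes past the threshold at Night, 13 of them higher, and 52 that differed from Day, 6 of them lower; called lower were 2 photosystem II, 2 photosystem I and 3 cytochrome b6f genes, and called higher 5 tRNA and 2 rRNA genes. Windows of 100 bp gave 1127 past the threshold, as they are fewer, and a minimum of 1.5 gave 17 regions. Leaving out a replicate number gave 93 to 95 genes at Night and 74 to 82 that differed from Day. The sign turned without 1 replicate number for petN (−0.035 to 0.10 over the 3), the difference of psbD (−0.044 to 0.037) and trnR (ArthCt127) (−0.038 to 0.20); none of these was called where the sign turned. The peak windows 47551, 54751, 64451, 51851 and 67701 lost the call of their difference without replicate 1 and without replicate 2, 36401 without replicate 1 and 50701 without replicate 2; for 67701 the values were 1.08 and 0.82. Same-numbered ChIP and input libraries deviated together with r of 0.28, 0.63 and 0.52 by Day but 0.03 to 0.51 at Night; a pairing needed every r above 0.1, so the numbers were not taken as pairs; the replicate block gave 101 genes at Night, 81 that differed from Day and 2281 windows. A minimum on input coverage was added after seeing the data and left the number of regions within 1.5 times. The read number behind the coverage is unknown, and Night ChIP replicate 1, at 102 per position, is the least deep.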

Other observations

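Protein-coding genes placed in none of the photosynthesis, ribosomal protein or RNA polymerase groups were low at Night. They include accD, clpP, ycf1 and ycf2 of the NEP list given above. Of their 10 entries 9 were lower than input and clpP did not pass, with a median of −0.80. matK, for an intron maturase, was at −0.37 ± 0.17, cemA, for an envelope membrane protein, at −0.71 ± 0.11, ccsA, for cytochrome c assembly, at −0.82 ± 0.14, and ycf4, for a photosystem I assembly factor, at −0.78 ± 0.10. In the main scaling matK did not pass by Day, at −0.15 ± 0.14, and its difference from Day (−0.22) did not pass either (adjusted p = 0.204, limma). trnK, whose span holds matK, was lower than by Day with centred libraries (−0.76, adjusted p = 7.88e-05, limma). With scaling outside the repeats trnK was lower as well (−0.65, adjusted p = 0.000576, limma).

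A region before psaA peaked at 2.14 ± 0.11 at Night and 2.68 ± 0.18 by Day. It was the Night peak outside the inverted repeat with the largest fall in the main scaling (−0.54, adjusted p = 0.00769, limma). In that scaling psaA over its length did not differ from Day at the threshold (−0.11, adjusted p = 0.593, limma). With centred libraries and with scaling outside the repeats, psaA was among the 2 of 5 photosystem I genes called lower than by Day.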
